A study of Mus musculus with 12 samples.

Results

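The genes described here encode the proteins that coat hepatic lipid droplets and govern the release of fatty acids from them. They are 4 perilipins (*Plin2*, *Plin3*, *Plin4* and *Plin5*), 3 CIDE genes (*Cidea*, *Cideb* and *Cidec*), and the triglyceride lipase gene *Pnpla2* with its inhibitor genes *G0s2* and *Hilpda*. The 10 genes were chosen by symbol from the 54532 genes of the table, with earlier results of these data known. Counts of members are therefore set beside the shares of all genes as descriptions. All 10 were among the 11083 genes that reached a mean of 1 FPKM and were tested. FPKM is a fragment count divided by gene length and by a scaling total for the library. The livers came from 12 male C57BL/6J mice, 3 in each of 4 groups, which were kept on their diets for 26 weeks from the age of 5 weeks. ND-fed mice received a normal diet, control mice a high-fat diet, HYA-treated mice the same high-fat diet with 1% HYA, and LA-treated mice the high-fat diet with 1% LA. LA is linoleic acid, and HYA is the hydroxy fatty acid that gut bacteria make from it by hydration, so both supplements were given at a matched dose and for a matched time. The RNA was of whole liver rather than of sorted hepatocytes, and all mice were male.

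Hepatocytes store triglyceride in lipid droplets, whose surface is covered by perilipins. These proteins limit the access of lipases to the stored lipid, and Plin2, the main perilipin of the fatty liver, is stabilized when droplets accumulate. Plin3 moves between the cytosol and nascent droplets, Plin4 binds small new droplets, and Plin5, typical of oxidative tissues, links droplets to mitochondria. Cidea and Cidec promote the transfer of lipid from small to large droplets and thereby droplet growth, whereas Cideb, the CIDE protein of the normal liver, takes part in the lipidation of very low density lipoprotein. Adipose triglyceride lipase, the product of *Pnpla2*, cleaves the first fatty acid from triglyceride, and G0s2 and Hilpda bind and inhibit it. Many genes of this set are known targets of the nuclear receptors PPARα and PPARγ, and *Hilpda* is also known as a hypoxia-inducible gene.

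On the build GRCm38, *Plin2* lies at chr4:86648386-86670060 on the minus strand, *G0s2* at chr1:193272161-193273217 (minus), *Pnpla2* at chr7:141455198-141460743 (plus), and *Cideb* at chr14:55754050-55758458 (minus). *Cidec* (chr6:113424634-113435760, minus) and *Hilpda* (chr6:29272488-29275446, plus) share a chromosome, and *Cidea* lies at chr18:67343564-67367794 (plus) in the table, which differs here from GENCODE M21. *Plin4* (chr17:56100591-56109803), *Plin5* (chr17:56111601-56117596) and *Plin3* (chr17:56277476-56292873) lie in this order on the minus strand, with 1797 bases between *Plin4* and *Plin5* and 159879 bases between *Plin5* and *Plin3*. The exons of *Cideb* share 1136 bases (76.3% of the gene length) with those of *Nop9* on the opposite strand, and whether the counting used strand is not given in the sources used here. The *Cideb* values are therefore uncertain, because it is not known whether fragments on the shared bases were counted for *Cideb*, for *Nop9* or for neither. *Nop9* had a mean of 5.13 to 6.35 FPKM in the 4 groups against 149 to 176 FPKM for *Cideb*, which does not settle this. The same limit holds for the place of *Cideb* in the order by level and for the CIDE shares below.

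Fragments on genes numbered 17169064 to 25220880 per mouse, and for 2 kb of gene 3 fragments were worth 0.0607 to 0.0944 FPKM. Summed FPKM of 7 hepatocyte marker genes was 40023 to 41410 in ND-fed mice, 26670 to 30524 in control mice, 34234 to 35406 in HYA-treated mice and 29415 to 30086 in LA-treated mice. Of the 7 genes, 5 were called lower in the control group than with ND, against 19.1% of all tested genes. In bulk liver RNA, fewer cells of a type and less RNA per cell cannot be told apart. Since several members are also abundant in fat cells, adipocyte markers were examined. *Adipoq*, *Lep*, *Retn* and *Plin1*, the adipocyte markers below the level for testing, did not exceed 0.182, 0.016, 0.239 and 0.010 FPKM in any mouse. The sum of all 8 adipocyte markers was 12.6 to 15.0 FPKM in ND-fed mice and 11.7 to 14.0 in control mice. It was 11.2 to 16.3 in HYA-treated mice and 11.5 to 19.8 in LA-treated mice. Of the 4 adipocyte markers tested, 1 was higher (*Fabp4*, mean 5.77 against 1.63 FPKM) and 1 lower (*Cfd*, 1.63 against 6.54) in the control group than with ND. The shares of all tested genes were 16.2% higher and 19.1% lower. None of the 4 passed in the comparison of HYA-treated with control mice, where 1.57% of all tested genes were higher and 1.23% lower. The sums for the other cell types stand beside the results for HYA.

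Promoter sequences were taken from RefSeq (build GRCm38.p6), which gave 12 windows for 9 of the 10 genes. The stretches upstream of *Plin2*, *Cidec*, *Plin4* and *Plin5* are shown because the first 3 genes changed together with diet whereas *Plin5*, the neighbor of *Plin4*, did not pass the test. Each is written 5′ to 3′ on the minus strand and ends next to the annotated gene (*Plin2*, chr4:86670061-86670309; *Cidec*, chr6:113435761-113436010; *Plin4*, chr17:56109804-56110032; *Plin5*, chr17:56117597-56117798). Capitals mark the nuclear receptor half-site AGGTCA or its reverse complement TGACCT.
Plin2: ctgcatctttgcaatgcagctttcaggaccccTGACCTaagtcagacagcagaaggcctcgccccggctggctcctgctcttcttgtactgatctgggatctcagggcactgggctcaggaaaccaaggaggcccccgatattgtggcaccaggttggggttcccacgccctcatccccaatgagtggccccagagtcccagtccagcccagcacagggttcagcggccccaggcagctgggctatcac
Cidec: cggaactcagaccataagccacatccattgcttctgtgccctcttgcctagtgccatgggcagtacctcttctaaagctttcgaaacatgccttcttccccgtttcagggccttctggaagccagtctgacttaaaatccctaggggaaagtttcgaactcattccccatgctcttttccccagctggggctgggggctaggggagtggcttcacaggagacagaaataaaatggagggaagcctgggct
Plin4: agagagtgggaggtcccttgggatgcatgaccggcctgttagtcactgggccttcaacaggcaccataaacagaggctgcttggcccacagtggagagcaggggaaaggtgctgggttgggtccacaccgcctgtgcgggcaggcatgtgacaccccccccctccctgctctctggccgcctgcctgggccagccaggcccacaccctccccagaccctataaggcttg
Plin5: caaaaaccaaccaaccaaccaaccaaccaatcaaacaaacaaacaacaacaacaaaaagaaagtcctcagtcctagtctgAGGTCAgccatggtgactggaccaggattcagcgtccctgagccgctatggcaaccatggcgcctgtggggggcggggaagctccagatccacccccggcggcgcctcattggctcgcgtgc
The half-site, searched on both strands of the 250 bases upstream of each start, was found 218 to 213 bases upstream of the *Plin2* start and 170 to 165 bases upstream of the first listed *Plin5* start, and in no window of the other members. It occurred in 14.0% of all 32851 windows of this length. A direct repeat of the half-site with 1 base between the copies (DR1, the arrangement that PPAR heterodimers bind) was in 0 of the 12 member windows and in 0.0335% of all windows. The hypoxia response core ACGTG was found in 1 member window, that of the second *Hilpda* start, 43 to 39 bases upstream of it and thus downstream of the first start, and in 16.6% of all windows. These matches describe letters only.

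Feeding a high-fat diet was accompanied by a large increase in the mRNA of droplet coat genes. In control mice compared with ND-fed mice, *Cidea* was 12.4-fold and *Cidec* 10.04-fold higher, *Hilpda* 5.36-fold, *Plin4* 2.74-fold, *Plin2* 2.50-fold and *Plin3* 1.67-fold, as ratios of mean FPKM. *Plin5*, *Cideb*, *G0s2* and *Pnpla2* did not pass the test. Thus 6 of 10 members were called higher at an adjusted p of 0.05 (limma on log2(FPKM + 1), Benjamini-Hochberg over all tested genes), against 16.2% of all genes, and 0 were called lower, against 19.1%. With the additional threshold of 1 on the log2 scale, 5 members were called higher, against 2.25% of all genes. The median log2 fold change was 0.98 over the 10 members and −0.043 over all tested genes. Rescaling to TPM moved the latter to 0.17 and the higher share of all calls from 45.9% to 83.8%. Relative to that shift, the 6 called genes still differed by 0.79 (*Plin3*) to 3.54 (*Cidea*).

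**Figure D1:**
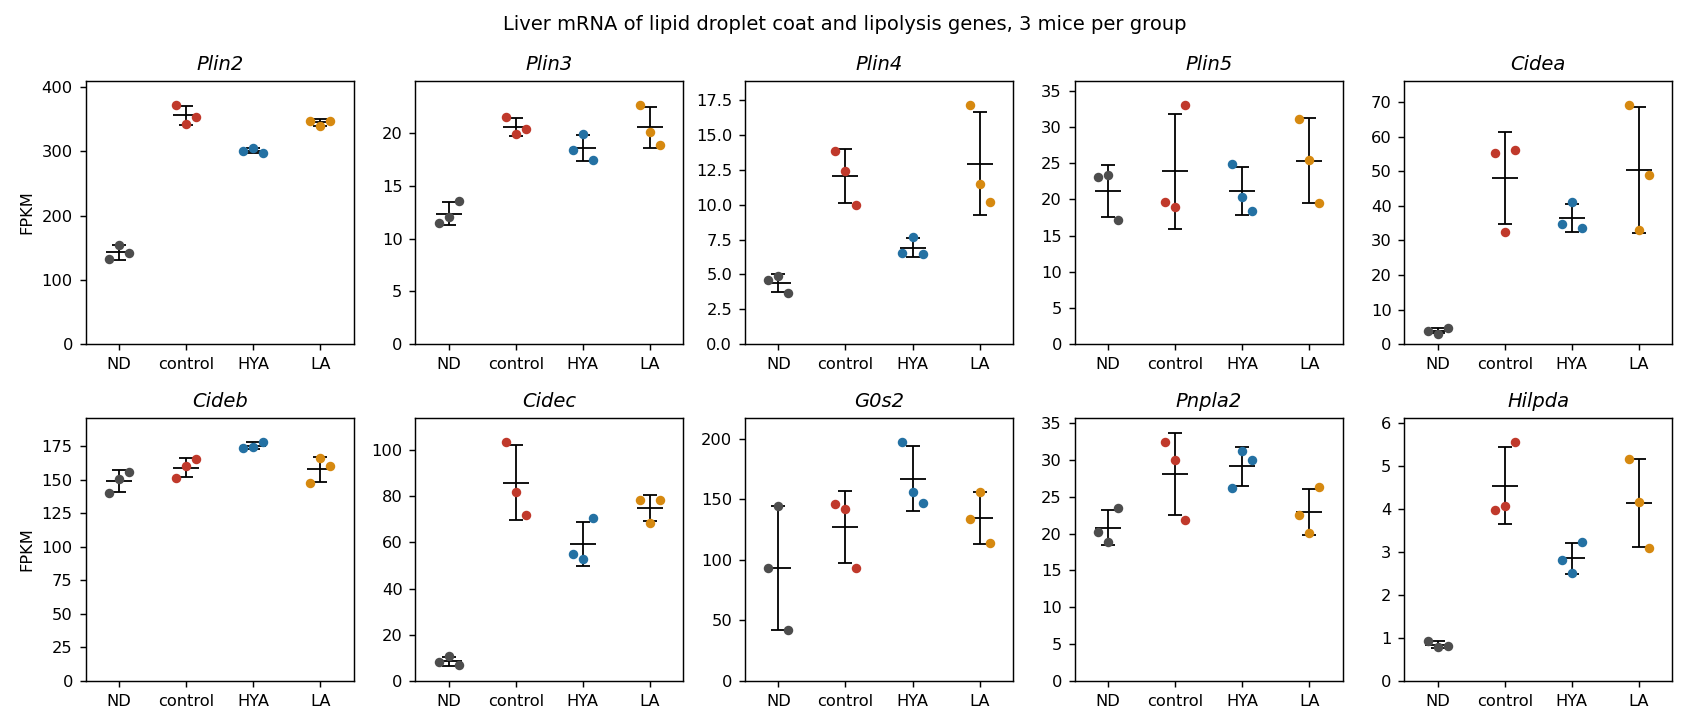
FPKM (vertical axes, linear and starting at 0) of the 10 genes in each of the 12 mice by diet group (horizontal axes: ND, control, HYA, LA). Points are mice, long bars the mean and error bars 1 SD (n = 3). The 3 ND-fed mice lie below all other mice for *Plin2*, *Plin3*, *Plin4*, *Cidea*, *Cidec* and *Hilpda*, and the 3 HYA-treated mice lie below all control and LA-treated mice for *Plin2* and *Plin4*.

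Among the perilipins, *Plin2* stood at 132, 154 and 142 FPKM in the 3 ND-fed mice, 372, 343 and 354 in control mice, 301, 306 and 297 in HYA-treated mice, and 348, 340 and 348 in LA-treated mice. The control and ND ranges lay far apart, and the spread within each group was small (SD of 4.48 to 14.7 FPKM). The difference between control and ND-fed mice was 1.32 on the log2 scale (SE 0.06, limma adjusted p = 2.61e-07). *Plin2* was also the most deeply covered member, with 8169 to 28120 fragments per mouse.

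*Plin4*, the gene of the perilipin of small droplets, had 4.61, 4.90 and 3.69 FPKM in ND-fed mice, 13.8, 12.4 and 9.97 in control mice, 6.56, 7.70 and 6.48 in HYA-treated mice, and 17.1, 11.5 and 10.2 in LA-treated mice. All control mice exceeded all ND-fed mice, and the difference was 1.27 on the log2 scale (SE 0.17, limma adjusted p = 0.000293). *Plin3* read 11.5, 12.0 and 13.6 FPKM in ND-fed mice and 21.5, 19.9 and 20.4 in control mice, followed by 18.4, 19.9 and 17.5 with HYA and 22.7, 20.1 and 18.9 with LA. Its increase with diet was smaller but also without overlap (0.70, SE 0.08, limma adjusted p = 0.000113).

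*Plin5*, which lies next to *Plin4*, behaved differently. Its FPKM values were 23.1, 23.4 and 17.1 in ND-fed mice, 19.6, 19.0 and 33.1 in control mice, 24.8, 20.3 and 18.4 in HYA-treated mice, and 31.2, 25.4 and 19.5 in LA-treated mice. The 4 groups overlapped, and the fitted difference between control and ND-fed mice was 0.13 (95% interval −0.36 to 0.63, limma adjusted p = 0.684). Control mouse 3 alone carried the high *Plin5* value of its group, and without it the difference was −0.12.

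The largest differences were those of the droplet-fusing CIDE genes. *Cidec* (also called Fsp27) was at 8.16, 10.6 and 6.90 FPKM in ND-fed mice and at 104, 81.8 and 71.9 in control mice, with 54.9, 52.8 and 70.4 in HYA-treated mice and 78.2, 68.5 and 78.3 in LA-treated mice. The lowest control value was several times the highest ND value, and the difference was 3.19 on the log2 scale (SE 0.17, limma adjusted p = 6.32e-07). *Cidea* had 3.96, 3.08 and 4.54 FPKM in ND-fed mice, 55.3, 32.5 and 56.1 in control mice, 34.8, 41.2 and 33.7 in HYA-treated mice, and 69.1, 32.9 and 48.9 in LA-treated mice. Its difference was 3.30 (SE 0.26, limma adjusted p = 9.05e-06), and *Cidea* varied more between control mice and between LA-treated mice than *Cidec* in proportion to its level. *Cideb* stood already high in ND-fed mice, at 140.0, 151 and 156 FPKM, measured 152, 161 and 165 in control mice, and had 148, 166 and 160 in LA-treated mice. The control and ND ranges overlapped, and the difference of 0.096 did not pass the test (95% interval −0.039 to 0.23, limma adjusted p = 0.250). With TPM, *Cideb* did pass (0.33, limma adjusted p = 0.000537), of which 0.17 remained relative to the shift of all genes, and it also passed with voom on recovered fragments.

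*Hilpda*, an inhibitor of the lipase and the least abundant member with 14 to 127 fragments per mouse, had 0.929, 0.799 and 0.807 FPKM in ND-fed mice, 3.96, 4.07 and 5.56 in control mice, 2.81, 2.50 and 3.23 in HYA-treated mice, and 5.15, 4.17 and 3.09 in LA-treated mice. Every mouse on a high-fat diet exceeded every ND-fed mouse, and the difference between control and ND-fed mice was 1.57 (SE 0.15, limma adjusted p = 2.80e-05). The pseudocount of 1 understates the change of so low a gene. *Pnpla2* was at 20.2, 18.8 and 23.5 FPKM in ND-fed mice, 32.5, 30.0 and 21.9 in control mice, 26.2, 31.3 and 29.9 in HYA-treated mice, and 22.5, 20.1 and 26.3 in LA-treated mice. The control and ND ranges overlapped through control mouse 3, and the difference of 0.40 missed the threshold (SE 0.15, limma adjusted p = 0.0530). It passed without control mouse 3 (0.57, adjusted p = 0.00694), without ND mouse 3 (0.49, adjusted p = 0.0446), with TPM (0.65, of which 0.48 relative to the shift of all genes), with median-ratio size factors (0.44) and with voom (0.61).

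*G0s2* had the largest standard error of the members (0.36 on the log2 scale). Its FPKM values were 93.5, 145 and 42.4 in ND-fed mice, 146, 142 and 93.1 in control mice, 198, 156 and 147 in HYA-treated mice, and 134, 156 and 114 in LA-treated mice. ND-fed and control mice overlapped, and the difference was 0.58 with an interval from −0.21 to 1.36 (limma adjusted p = 0.236). It passed the test without ND mouse 2 (0.97, adjusted p = 0.0426) and fell to 0.098 without ND mouse 3. Across the 10 genes, the ranges of control mice lay wholly above those of ND-fed mice for 6 genes, against 19.9% of all tested genes.

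The order of the members by level, which FPKM allows to be compared between genes because it is per length, changed with diet. In ND-fed mice it was *Cideb*, *Plin2*, *G0s2*, *Plin5*, *Pnpla2*, *Plin3*, *Cidec*, *Plin4*, *Cidea* and *Hilpda*. Here *Cideb* and *Plin2*, *Plin2* and *G0s2*, *Plin5* and *Pnpla2*, and *Plin4* and *Cidea* were neighbors that lay within their SD of each other. In control mice *Plin2* stood first at 356 ± 14.7 FPKM (SD, n = 3), followed by *Cideb* at 159 ± 7.03, *G0s2* at 127 ± 29.5, *Cidec* at 85.8 ± 16.2 and *Cidea* at 48.0 ± 13.4. *Pnpla2*, *Plin5* and *Plin3* came next, of which *Plin5* lay within the SD of each of the other 2, before *Plin4* and *Hilpda*. The order in HYA-treated mice was that of control mice, with *Cideb* and *G0s2* as well as *Plin5* and *Plin3* within their SD, and in LA-treated mice only *Plin5* and *Pnpla2*, which lay within their SD, changed places.

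The next comparison, of HYA-treated with control mice, asked whether the supplement altered these genes within the high-fat diet. *Plin2*, *Plin4*, *Cidec* and *Hilpda* had lower values in all 3 HYA-treated mice than in any control mouse, and *Cideb* and *G0s2* higher values. None of the 10 differences passed the test over all genes. The counts called by limma were 0 higher, against 1.57% of all tested genes, and 0 lower, against 1.23%. At an unadjusted p of 0.05, 4 members were lower (*Plin2*, *Plin4*, *Cidec* and *Hilpda*), against 7.89% of all genes, and 1 was higher (*Cideb*), against 10.6%. Ranges without overlap were found for the same 4 genes in the lower direction, against 8.87% of all genes, and for 2 genes in the higher direction, against 12.7%. The median log2 fold change was −0.19 over the members and 0.019 over all tested genes.

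*Plin4* had the largest fitted difference, from 12.1 ± 1.94 FPKM in control to 6.91 ± 0.680 in HYA-treated mice (SD, n = 3), a change of −42.7%. On the log2 scale this was −0.72 (SE 0.17, 95% interval −1.10 to −0.33, limma adjusted p = 0.0548). *Plin2* went from 356 ± 14.7 to 301 ± 4.48 FPKM, or −15.5% (−0.24, SE 0.06, limma adjusted p = 0.0602). *Hilpda* had 4.53 ± 0.890 against 2.84 ± 0.365 FPKM (−0.52, SE 0.15, limma adjusted p = 0.0896), and *Cidec* 85.8 ± 16.2 against 59.3 ± 9.61 (−0.52, SE 0.17, limma adjusted p = 0.120). The *Cidec* ranges were close, with a highest HYA value of 70.4 and a lowest control value of 71.9 FPKM.

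The calls on these 4 genes turned on the processing. voom on recovered fragments called 3 of them lower, *Plin2* (−0.34, adjusted p = 0.0136), *Plin4* (−0.90, adjusted p = 0.0204) and *Cidec* (−0.62, adjusted p = 0.0324). TPM also called 3, *Plin2* (−0.37, adjusted p = 0.0202), *Plin4* (−0.88, adjusted p = 0.0315) and *Hilpda* (−0.71, adjusted p = 0.0427). TPM and voom set aside the scaling of the deposited values and moved the median of all genes to −0.095 and −0.098. The lower share of calls grew with them, since 174 genes were higher and 136 lower as reported but 97 higher and 400 lower with TPM. Relative to that median the TPM differences were −0.27 for *Plin2*, −0.79 for *Plin4* and −0.62 for *Hilpda*. Without control mouse 2, limma called *Plin2* (−0.27, adjusted p = 0.0453). Other alternatives raised the adjusted p above that of the reported fit. For *Plin2*, *Plin4*, *Cidec* and *Hilpda* it was 0.163, 0.128, 0.217 and 0.164 in a limma fit of only the 2 groups. Without control mouse 1 the limma adjusted p was 0.214, 0.214, 0.385 and 0.182. All 4 genes kept a negative difference under all 14 alternatives to the reported fit, but most of these could not change the sign. The changes of filter, the fit of only the 2 groups and the replicate block leave the estimate itself as it was. Since the ranges of these genes did not overlap, leaving out a mouse could not turn the sign.

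**Figure D2:**
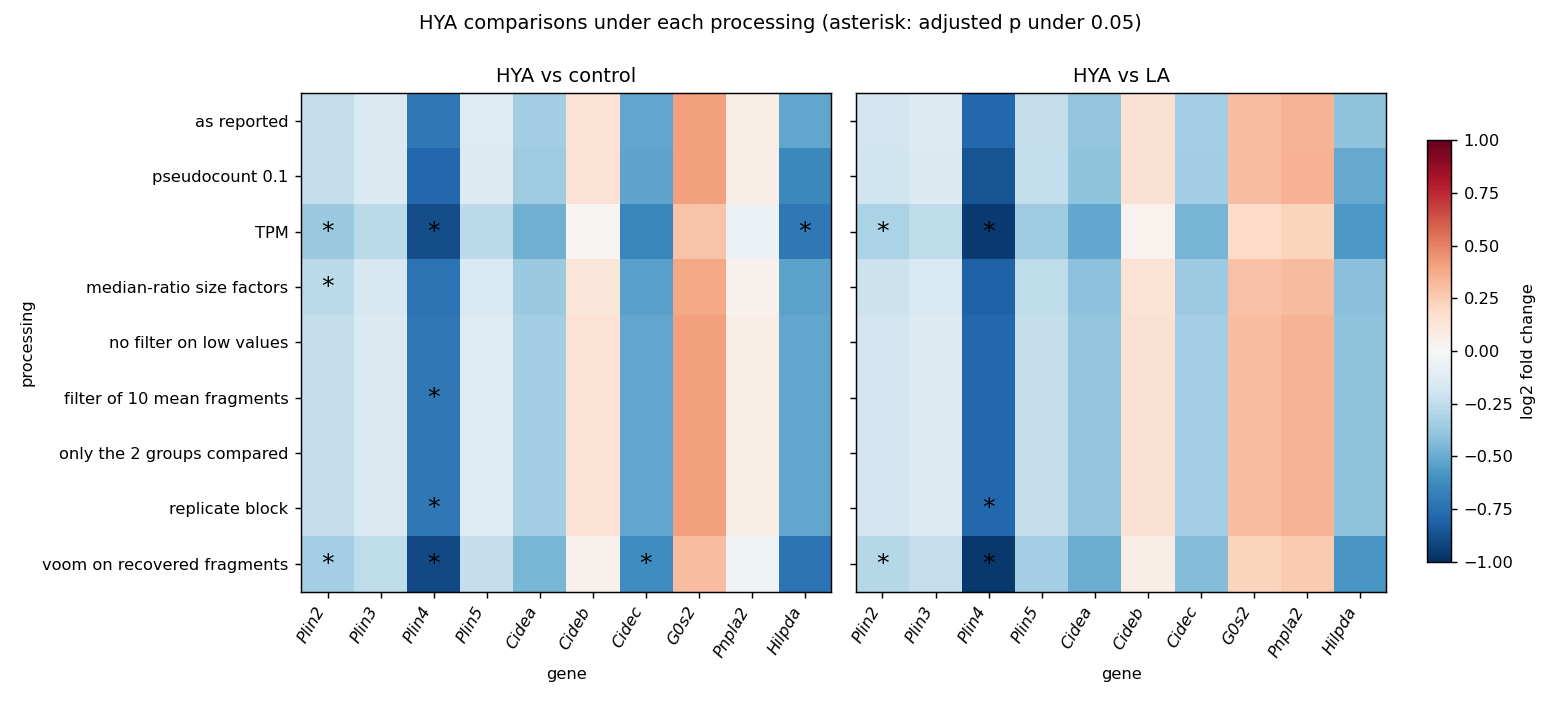
Log2 fold change of each gene (columns) under the reported processing and 8 alternatives (rows), for HYA-treated against control mice (left) and against LA-treated mice (right). Color gives the log2 fold change from −1 (blue, lower with HYA) to 1 (red, higher), and asterisks mark an adjusted p under 0.05. *Plin4* and *Plin2* carry most of the asterisks, and none stands in the row of the reported fit.

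The other members showed no such separation, except for 2 genes. *Cideb* had 174, 174 and 179 FPKM in HYA-treated mice, above the control range, with a difference of 0.14 (SE 0.06, limma adjusted p = 0.244) that shrank to 0.017 with TPM. Relative to the TPM median of all genes (−0.095), the *Cideb* difference was 0.11. The *G0s2* values of HYA-treated mice, 147 to 198 FPKM, lay just above the highest control value of 146 (0.41, SE 0.36, limma adjusted p = 0.605). *Cidea* differed by −0.35 (95% interval −0.92 to 0.23), *Plin3* by −0.14 (−0.32 to 0.037), *Plin5* by −0.13 (−0.63 to 0.36) and *Pnpla2* by 0.065 (−0.26 to 0.39). The ranges of these 4 genes overlapped, and the sign of the *Pnpla2* difference turned with TPM (−0.058) and with voom (−0.031). Relative to the same TPM median, the *Pnpla2* difference was 0.037.

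Markers of other liver cell types moved with some of these values, and their part in the results was not tested. For HYA-treated against control mice, 1.57% of all tested genes were higher and 1.23% lower. For control against ND-fed mice the shares were 16.2% and 19.1%. Of 5 cholangiocyte markers 3 were tested and 2 (*Spp1* and *Epcam*) were lower in the HYA group than in the control group, whereas *Sox9* did not pass. The sums of all 5 were 38.5 to 52.5 against 77.9 to 172 FPKM. The same 2 were higher in the control group than with ND, where the sum was 19.1 to 27.8 FPKM. Of 8 macrophage markers 7 were tested and 1 (*Gpnmb*) was lower (sums 127 to 178 against 171 to 187), and in control against ND-fed mice (126 to 189) 3 were higher and 2 lower. None of the 7 stellate cell markers (51.7 to 60.8 with HYA, 55.1 to 67.1 in control, 34.3 to 43.5 in ND-fed mice) or 6 endothelial markers (68.3 to 72.8, 70.2 to 72.6 and 50.6 to 63.2) passed with HYA, and 3 of each were higher in the control group than with ND. None of 5 lymphocyte markers reached the level for testing, and of 4 neutrophil markers the 1 tested (*S100a9*) did not pass in either comparison. In LA-treated against control mice no marker passed, as for all tested genes (0% in each direction).

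LA, the parent fatty acid at the same dose, was compared with the same control mice. The counts called were 0 higher and 0 lower by limma, as for all tested genes (0% in each direction), and voom called 0 as well. At an unadjusted p of 0.05 the counts were 0 higher, against 1.3% of all genes, and 0 lower, against 1.35%. *Plin2* differed by −0.046 (95% interval −0.18 to 0.086), *Plin4* by 0.073 (−0.31 to 0.45), *Cidec* by −0.18 (−0.54 to 0.19) and *Hilpda* by −0.12 (−0.44 to 0.21). *Plin3* (−0.0063), *Cideb* (−0.011), *Cidea* (0.046), *G0s2* (0.10) and *Plin5* (0.10) had estimates near 0, with intervals as wide as −0.69 to 0.89 for *G0s2*. *Pnpla2* had the largest estimate, −0.27 (−0.59 to 0.051, unadjusted p = 0.0911 in limma). The adjusted p was 0.999 for all 10 genes in limma, which does not show that LA-treated and control mice were alike.

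HYA and LA, which differ by the hydroxy group that hydration of a double bond of LA gives, were then compared directly. *Plin4* was at 6.91 ± 0.680 FPKM with HYA and 12.9 ± 3.70 with LA, and *Plin2* at 301 ± 4.48 and 345 ± 4.76 (SD, n = 3), without overlap for either gene. By limma 0 members were called higher with HYA, against 0.235% of all genes, and 0 lower, against 0.253%. The *Plin4* difference was −0.79 (SE 0.17, 95% interval −1.17 to −0.41, limma adjusted p = 0.0663) and that of *Plin2* −0.20 (SE 0.06, interval −0.33 to −0.063, limma adjusted p = 0.131). Both passed with TPM (adjusted p = 0.0421 and 0.0450) and with voom (adjusted p = 0.0256 and 0.0394). TPM and voom moved the median of all genes to −0.095 and −0.091. Relative to that median the TPM differences were −0.86 for *Plin4* and −0.22 for *Plin2*. Neither gene passed in a fit of only the 2 groups (limma adjusted p = 0.0935 and 0.0970) or without the filter (0.138 and 0.223). With any mouse left out, neither passed (limma adjusted p of up to 0.239 and 0.354).

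At an unadjusted p of 0.05, 3 members were lower with HYA than with LA (*Plin2*, *Plin4* and *Hilpda*), against 7.01% of all genes, and 2 were higher (*Cideb* and *Pnpla2*), against 10.2%. Ranges did not overlap for 2 genes in the lower direction, against 10.4%, and for 1 gene (*Cideb*) in the higher direction, against 14.8%. *Hilpda* differed by −0.40 (−0.73 to −0.077, limma adjusted p = 0.193) and *Cidec* by −0.34 (−0.71 to 0.023, limma adjusted p = 0.319). *Pnpla2* differed by 0.34 (0.013 to 0.66, limma adjusted p = 0.273) and *Cideb* by 0.15 (0.018 to 0.29, limma adjusted p = 0.232). The remaining estimates were −0.39 for *Cidea*, −0.24 for *Plin5*, −0.14 for *Plin3* and 0.31 for *G0s2*, each with an interval that includes 0. The members' median was −0.22, and that of all genes 0.014.

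**Figure D3:**
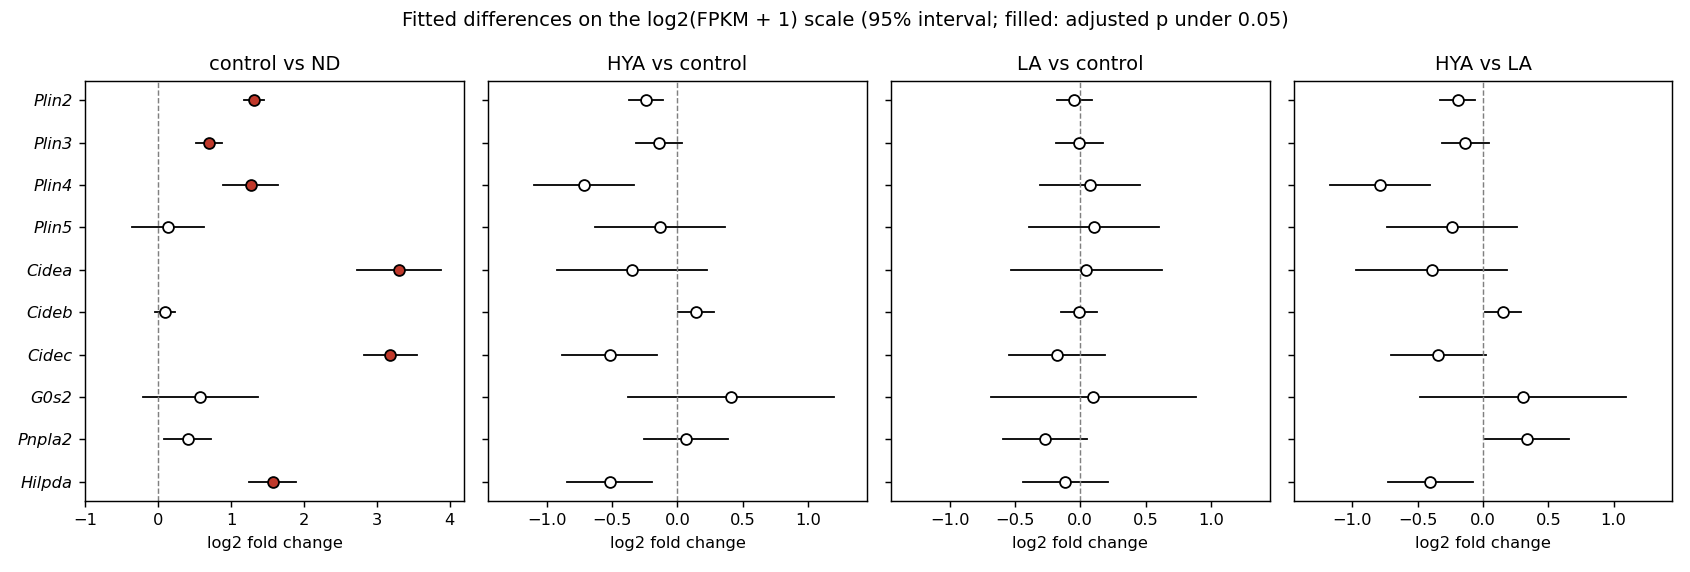
Log2 fold change on the log2(FPKM + 1) scale (horizontal axes; the range differs between the first panel and the other 3) of each gene in 4 comparisons, with 95% intervals from limma. Filled points passed an adjusted p of 0.05, which 6 genes did in control against ND-fed mice and 0 genes in the comparisons with HYA and LA.

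With ND-fed mice as the reference, *Cidec*, *Cidea*, *Plin2*, *Hilpda* and *Plin3* were higher in both supplemented groups. The comparisons share the ND-fed mice, so their values are given side by side only. In HYA-treated mice 6 members were called higher, against 8.72% of all genes, and 0 lower, against 7.85%, and in LA-treated mice 6 were higher, against 14.4%, and 0 lower, against 16.6%. *Cidec* was at 2.67 with HYA and 3.01 with LA on the log2 scale, *Cidea* at 2.96 and 3.35, *Plin2* at 1.07 and 1.27, *Hilpda* at 1.06 and 1.46, and *Plin3* at 0.55 and 0.69, all of which passed. *Plin4* passed with LA (1.34, limma adjusted p = 0.000239) but not with HYA (0.55, 95% interval 0.17 to 0.94, limma adjusted p = 0.0513), and with HYA it passed under 6 of 14 alternatives, TPM and voom among them. *Cideb* passed with HYA (0.24, limma adjusted p = 0.0231) but lost the call when any mouse of the 2 groups other than ND mouse 3 was left out, with an adjusted p of up to 0.0789. *G0s2* (0.99 with HYA, limma adjusted p = 0.0856) passed with voom (1.10) and without ND mouse 2 (1.38, adjusted p = 0.0202), and its difference was 0.51 without ND mouse 3. With LA, *G0s2* differed by 0.68 (limma adjusted p = 0.177), by 1.07 without ND mouse 2 (adjusted p = 0.0322) and by 0.20 without ND mouse 3. *Pnpla2* (0.47 with HYA, limma adjusted p = 0.0519) passed without ND mouse 3 (0.55, adjusted p = 0.0483) and under 4 other alternatives. With LA, *Cideb* passed with TPM (0.32, of which 0.15 relative to the shift of all genes) and voom (0.27) but not as reported (0.086).

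Proportions within each mouse do not depend on how a library was scaled. *Cidea* and *Cidec* together made up 7.97%, 8.32% and 6.82% of the summed FPKM of the 3 CIDE genes in ND-fed mice. The share was 51.2%, 41.5% and 43.6% in control mice, 34.0%, 35.0% and 36.8% in HYA-treated mice, and 49.9%, 37.9% and 44.3% in LA-treated mice. The 3 HYA-treated mice thus lay below all 6 control and LA-treated mice and above all ND-fed mice. The difference between HYA-treated and control mice was −10.2 percentage points, that between HYA-treated and LA-treated mice −8.74, and that of the control group from ND-fed mice 37.8. Each had p = 0.1 in a two-sided exact permutation test, the smallest value that 3 against 3 mice can give (adjusted p = 0.24 over 12 exact permutation tests). Leaving out control mouse 1 brought the first of these to −7.31 points, and leaving out LA mouse 1 brought the second to −5.79. LA-treated against control mice differed by −1.44 points (exact permutation p = 0.8).

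**Figure D4:**
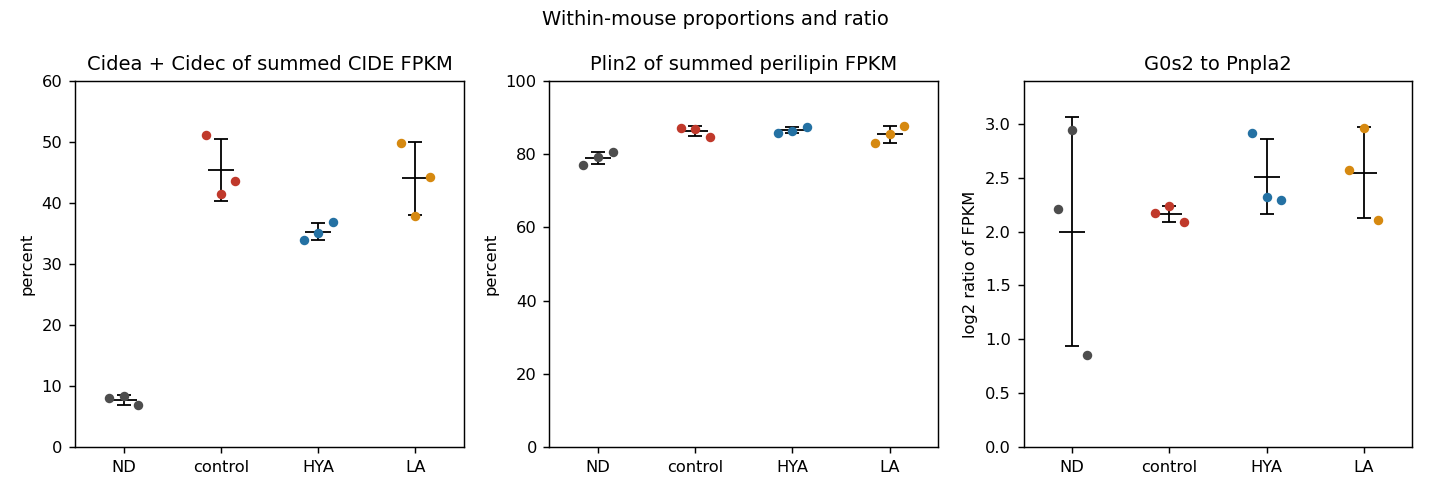
Share of *Cidea* plus *Cidec* in the summed CIDE FPKM (left, percent), share of *Plin2* in the summed perilipin FPKM (middle, percent) and log2 ratio of *G0s2* to *Pnpla2* (right) in each mouse by diet group, with the mean and 1 SD (n = 3). In the left panel the HYA-treated mice, at 34.0% to 36.8%, lie between the ND-fed mice and all other mice.

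*Plin2* made up most of the summed perilipin mRNA in every group. The *Plin2* share of the 4 perilipins was 77.2% to 80.5% in ND-fed mice, 84.8% to 87.1% in control mice, 85.8% to 87.5% in HYA-treated mice and 83.1% to 87.8% in LA-treated mice. The groups on a high-fat diet overlapped (HYA-treated against control, exact permutation p = 0.8), whereas control and ND-fed mice did not (exact permutation p = 0.1). The 4 perilipins summed to 181 ± 12.3 FPKM with ND, 413 ± 16.7 in the control group, 348 ± 7.56 with HYA and 404 ± 13.0 with LA (SD, n = 3). The log2 ratio of the inhibitor *G0s2* to the lipase *Pnpla2* was 2.21, 2.94 and 0.850 in ND-fed mice, 2.17, 2.24 and 2.09 in control mice, 2.91, 2.32 and 2.30 in HYA-treated mice, and 2.57, 2.96 and 2.11 in LA-treated mice. All HYA-treated mice exceeded all control mice (difference 0.34, exact permutation p = 0.1, adjusted p = 0.24), although the gap between the groups was small and the difference was 0.14 without HYA mouse 1. The other differences in this ratio had an exact permutation p of 0.3 to 0.9, and the difference of the control group from ND-fed mice changed from 0.17 to −0.41 without ND mouse 3.

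Other genes of the same pathways were counted by list, and the lists too were chosen with earlier results of these data known. Of 23 further droplet and lipolysis genes, 21 were tested, and 8 were higher and 6 lower in the control group than with ND, where 16.2% of all tested genes were higher and 19.1% lower. Their median log2 fold change was 0.19, and that of all genes −0.043. *Pnpla3*, a lipase family member on droplets, rose from 0.733 ± 0.451 to 9.98 ± 1.88 FPKM, and *Hsd17b13*, a droplet-bound dehydrogenase, from 157 ± 3.05 to 278 ± 22.5 (SD, n = 3). *Mgll* and *Lipa*, the genes of monoacylglycerol lipase and lysosomal acid lipase, also rose (0.67 and 0.55 on the log2 scale, limma adjusted p = 7.59e-05 and 0.000119). With HYA against control (1.57% of all genes higher and 1.23% lower), 0 of the 21 genes were higher and 1 was lower, *Hsd17b13* at 217 ± 6.48 FPKM (−0.35, limma adjusted p = 0.0257). That call was lost when any of the 6 mice but control mouse 2 was left out (adjusted p of up to 0.121) and in a fit of only the 2 groups. *Lpcat1*, a phospholipid remodeling enzyme, had −0.36 (limma adjusted p = 0.0607).

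Of 14 hepatic PPARα target genes, all tested, 9 were higher and 0 lower in the control group than with ND (16.2% and 19.1% of all genes), with a median of 0.26. With HYA against control 0 were higher and 0 lower, where the shares of all genes were also small (1.57% and 1.23%), and the median was 0.038. *Vnn1* rose by 1.63, *Fgf21* by 2.72, *Cyp4a14* by 1.44 and *Cpt1a*, the gate enzyme of mitochondrial fatty acid oxidation, by 1.07 on the log2 scale. Of 9 genes associated with PPARγ in fatty liver, 9 were higher and 0 lower with a median of 1.30, among them the fatty acid transporter gene *Cd36* (1.69), *Fabp2* (1.32) and the monoacylglycerol acyltransferase gene *Mogat1* (2.31). With HYA, 2 of these 9 were lower than in control mice and 0 higher, with a median of −0.40. *Scd2*, a fatty acid desaturase gene, went from 7.04 ± 1.76 to 3.16 ± 0.329 FPKM (−0.93, limma adjusted p = 0.0168), and *Mogat1* from 9.64 ± 0.527 to 6.96 ± 1.12 (−0.43, limma adjusted p = 0.0370). The same 2 genes were also lower than in LA-treated mice. Both calls against control were lost in a fit of only the 2 groups, that of *Mogat1* also without the filter on low values, that of *Scd2* also without HYA mouse 2 or 3 (adjusted p of up to 0.0829), and that of *Mogat1* without control mouse 1 or 3 or HYA mouse 1 or 2 (up to 0.161).

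Among 12 transcription factors and cofactors known to act on these genes, 0 were higher and 1 lower in the control group than with ND (16.2% and 19.1% of all genes), with a median of 0.12. With HYA 0 were higher and 0 lower (1.57% and 1.23% of all genes), with a median of 0.10. The 1 was *Nr1h3*, the gene of LXRα (−0.17, limma adjusted p = 0.0433), whose sign turned with TPM (0.063) and voom (0.017) and whose call was kept under 4 of 14 alternatives and lost, among others, without ND mouse 1 or 2 or control mouse 1 or 3 (adjusted p of up to 0.147). *Pparg* had 7.64 ± 2.04 and 10.6 ± 2.49 FPKM in ND-fed and control mice (limma adjusted p = 0.0927), and *Ppara* 38.2 ± 4.18 and 52.3 ± 13.3 (limma adjusted p = 0.112). Both passed with TPM and voom, which in this comparison also moved the median of all genes to 0.17 and 0.18. *Pparg* also passed without ND mouse 1 (0.57, adjusted p = 0.0455) and *Ppara* without control mouse 3 (0.63, adjusted p = 0.0157). In LA-treated against control mice, 0 genes of these 4 lists passed in either direction, as for all tested genes (0% in each direction).

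Finally, the genes whose values over the 12 mice were most like each member were sought by Pearson correlation on the log2(FPKM + 1) scale. These values are descriptions, since the ND-fed mice stand apart for 6 members and set much of the correlation, and the value over the 9 mice on a high-fat diet is given second. *Cidec* was most like *Plin2* (r = 0.99 and 0.81), *Mogat1* (0.99 and 0.84) and *Hadhb* (0.99 and 0.70). *Plin2* was most like *Enc1* (0.99 and 0.93), *Slc22a27* (0.99 and 0.75) and *Hadhb* (0.99 and 0.71), and *Cidea* like *Serpina7* (0.99 and 0.68), *Apoa4* (0.98 and 0.53) and *Enc1* (0.98 and 0.61). *Plin2* thus shared *Hadhb* with *Cidec* and *Enc1* with *Cidea*, and *Cidec* and *Cidea* shared none of these genes. *Plin4* was like *Mir6358* (0.97 and 0.95), *Scd1* (0.97 and 0.94) and *Mapt* (0.96 and 0.94), and *Hilpda* like *Rad51b* (0.98 and 0.88), *Tbc1d31* (0.98 and 0.92) and *Fkbp1a* (0.98 and 0.90). For *Plin3* the likeness was greatest with *Prob1* (0.99 and 0.94), *Mafk* (0.98 and 0.92) and *Rfk* (0.98 and 0.79). The members that did not pass with diet had other neighbors. They were *Mrap*, *Stt3b* and *Lgalsl* for *Plin5* (0.93 to 0.95 over 12 mice), *Pmf1*, *Lect2* and *Tnfaip8l1* for *Cideb* (0.88 to 0.94), *Ankmy2*, *Inhbe* and *Ovca2* for *G0s2* (0.88 to 0.89), and *Txnip*, *Slc25a1* and *Hmgn2-ps1* for *Pnpla2* (0.92 to 0.93).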

How the data were processed

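Liver RNA of 12 mice was sequenced from both ends at Novogene on the HiSeq platform, and per the labels' processing notes the tools were fastp, HISAT2 2.0.5 and featureCounts 1.5.0-p3 on GRCm38. The authors deposited a single table that holds FPKM for each gene in each mouse, along with gene lengths and coordinates. Its columns sum to 342146 to 429286, so they are not TPM, the unit named in the methods. The FPKM were kept as deposited, since each value is a whole multiple of 1 fragment (100% of low values, within 0.1 fragment), and fragments were recovered for voom. The scaling total behind the FPKM was not the count of fragments on genes. It was below that count in all ND-fed mice (17569200 against 18443002 in ND mouse 1). It was above it in all control and LA-treated mice (21503700 against 19558364 in control mouse 1), and HYA-treated mice lay on both sides.

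Genes whose mean reached 1 FPKM were tested with limma 3.58.1 in R 4.3.3 on log2(FPKM + 1) (pseudocount 1), in 1 fit of all 12 mice without replicate block, with a trended prior, two-sided, and adjusted by Benjamini-Hochberg over 11083 genes. Named were all members, from each list at most the 4 genes with the lowest p for control against ND and the 2 for HYA against control, and the 3 most correlated genes. Columns of the same group correlated at 0.983 to 0.990, and none were duplicates. The script was tested on simulated data. The members and lists were chosen with earlier results of these data known. Alternatives were a pseudocount of 0.1, TPM, median-ratio size factors, no filter, a filter of 10 mean fragments, 2 groups only, a replicate block, voom, a threshold of 1 on the log2 fold change and leaving out each mouse. For TPM each mouse was scaled by its FPKM sum, and for voom by its fragment total without normalization factors. Intervals and adjusted p-values rest on 1 spread between mice per gene. It was pooled over the 4 groups of 3 mice and moderated by the trend of all genes, so it is not the spread of any 1 group. In a fit of only HYA-treated and control mice, 0 of all tested genes were called, against 310 as reported.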

Additional observations from a re-analysis of the deposited data

How the results depend on the processing

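In the comparisons with ND-fed mice, the number of members called stayed within 1.5 times the reported number under the alternatives run, at 5 to 8 for control, 4 to 9 for HYA-treated and 5 to 7 for LA-treated mice. For HYA-treated against control mice it was 0 as reported, 3 with TPM, 1 with median-ratio size factors, 1 with a filter of 10 mean fragments, 1 with the replicate block, 3 with voom, and 0 to 1 when a mouse was left out (*Plin2*, without control mouse 2). For HYA-treated against LA-treated mice it was 0 as reported, 2 with TPM, 1 with the replicate block and 2 with voom. For LA-treated against control mice it was 0 in each. TPM and voom replaced the scaling of the deposited values by the FPKM sum and the fragment total of each mouse. The filter and the scaling thus changed which genes or values entered the fit, and beyond that the cause was not tested.

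The difference of *Pnpla2* between HYA-treated and control mice turned to −0.058 with TPM and −0.031 with voom, and that of *Nr1h3* between control and ND-fed mice to 0.063 and 0.017. Relative to the TPM median of all genes, the *Pnpla2* difference was 0.037. When a mouse was left out, the sign also turned for *Plin5* between control and ND-fed mice (−0.12 to 0.27), for *Plin5* (−0.27 to 0.12) and *Pnpla2* (−0.10 to 0.18) between HYA-treated and control mice, and for *Plin5* between HYA-treated and ND-fed mice (−0.14 to 0.093). Between LA-treated and control mice it turned for *Plin3* (−0.076 to 0.050), *Plin4* (−0.13 to 0.22), *Plin5* (−0.052 to 0.35), *Cidea* (−0.21 to 0.31), *Cideb* (−0.047 to 0.036), *G0s2* (−0.11 to 0.22) and *Hilpda* (−0.26 to 0.039). None of these differences of members passed the test under any of the alternatives run. The cause was not tested.

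The replicate numbers were not taken to pair the mice. Deviations from the group means of same-numbered mice correlated at −0.396 to 0.294 over 18 pairs, and 3 pairs exceeded 0.1. For 36 differently numbered pairs the range was −0.375 to 0.393, and 7 pairs exceeded 0.1. The replicate block left the number of members called in control against ND-fed mice at 6. With it *Plin4* passed in HYA-treated against control mice (limma adjusted p = 0.024) and against LA-treated mice (limma adjusted p = 0.028). Over all tested genes, the block raised the calls from 310 to 449 and from 54 to 258 in these 2 comparisons. With 3 mice per group the exact permutation tests cannot go below p = 0.1, and *Hilpda*, at 14 to 127 fragments per mouse, is the member whose values depth limits most.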

Other observations

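Some values were noticed in the data after the comparisons had been made, and they are given without a test. The log2 ratio of *Plin4* to *Plin2* FPKM was −5.52, −5.31 and −5.52 in the HYA-treated mice, below all 9 other mice, which ranged from −5.26 to −4.34. The ND-fed mice, with −4.84, −4.98 and −5.26, overlapped with the control mice, at −4.75, −4.79 and −5.15.

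The log2 ratio of *Plin4* to its neighbor *Plin5* was −2.33, −2.26 and −2.21 in ND-fed mice, −0.508, −0.615 and −1.73 in control mice, −1.92, −1.40 and −1.50 in HYA-treated mice, and −0.862, −1.14 and −0.941 in LA-treated mice. Control mouse 3, with the lowest ratio of its group, had the highest *Plin5* level of the 12 mice (33.1 FPKM) and the lowest *Plin4*, *Pnpla2*, *G0s2* and *Cidec* levels of the control mice. ND mouse 3 had the lowest *G0s2* (42.4 FPKM) and the lowest *Plin5* (17.1 FPKM) of all 12 mice.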
